A study of Mus musculus with 8 samples.

Results

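The nuclear genes of oxidative phosphorylation were compared between 2 mural cell populations of mouse skeletal muscle, pericytes and smooth muscle cells (SMCs). Members were chosen by symbol: names that start with Ndufa, Ndufb, Ndufc, Ndufs or Ndufv and a digit, Sdha to Sdhd, names that start with Uqcr or Atp5, and Cox genes numbered from 4 to 8. The hypoxia- and tissue-linked relatives Ndufa4l2 and Cox4i2 and names ending in a pseudogene suffix were left out. This gave 84 of the 37979 genes listed. They were 35 genes of complex I, 4 of complex II, 8 of complex III, 18 of complex IV and 16 of complex V, with 3 genes (Cox4nb, Atp5s and Atp5sl) that share such a name without being counted here as subunits. Atp5l2, counted by its name in complex V, is annotated as a pseudogene and reached 3.21 FPKM at most.

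Bulk RNAseq was performed on 8 libraries, 4 of pericytes (PC-1 to PC-4) and 4 of SMCs (SMC-1 to SMC-4), all labelled with the same batch. Every mouse was Ai14+/-;SM22α-Cre+, of either sex and aged 3 to 4 months, so both groups carry the same alleles. In these mice the red protein tdTomato is turned on for good in any cell that has used the SM22α promoter, which drives Cre. Hindlimb muscle was dissociated and CD31+ endothelial cells, CD45+ blood cells and dead cells were gated out. PDGFRβ+tdTomato- cells were then collected as pericytes and PDGFRβ+tdTomato+ cells as SMCs, about 60000 cells pooled from several sorts for each library.

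Oxidative phosphorylation is the last stage of respiration. Complexes I and II take electrons from NADH and succinate, complex III passes them to cytochrome c, complex IV hands them to oxygen, and complex V (ATP synthase) uses the proton gradient to make ATP. Most subunits are encoded in the nucleus and a smaller set in mitochondrial DNA, and several complex IV subunits exist as a widely used form and a form typical of striated muscle or testis.

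The libraries were checked first. The labelled cell types were not cleanly seen in the marker genes. In the PC libraries 9 of 10 T cell markers and 8 of 8 B cell markers were higher (limma, adjusted p below 0.05), although CD45+ cells had been gated out. The summed level of the T cell markers was 1960 to 2980 FPKM in the PC libraries against 35.6 to 66.6 FPKM in the others, that of the B cell markers was 900 to 2150 and 11.2 to 34.5 FPKM, and none of these markers was at 0 throughout a group. Of 10 pericyte markers, limma called none higher in the PC libraries. It called 1 higher in the SMC libraries (Rgs5, log2 difference -1.30, adjusted p = 0.024). At an unadjusted p below 0.05, 0 pericyte markers were higher in the PC libraries and 5 in the SMC libraries (0 and 1 without PC-2). Their median difference was -1.3. Of 10 SMC markers limma called none in either direction. At an unadjusted p below 0.05, 0 SMC markers were higher in the PC libraries and 3 in the SMC libraries. When limma treated replicate numbers as blocks, 6 pericyte markers and 1 SMC marker were called, all higher in the SMC libraries. Other lists pointed to the SMC libraries. Of 8 fibroblast markers 7 were higher there, while Dcn is listed at 0 in all SMC libraries and was higher in the PC libraries (summed level 1030 to 1940 FPKM in the PC libraries and 4500 to 6390 FPKM in the others). Of 8 endothelial markers 6 were higher in the SMC libraries, with a summed level of 81.9 to 134 FPKM in PC-1 to PC-4 and 297 to 981 FPKM in SMC-1 to SMC-4, although CD31+ cells had been gated out. So were 4 of 7 macrophage markers (summed level 782 to 1760 against 996 to 1610 FPKM) and 6 of 12 genes that dissociation of tissue induces (5960 to 6630 against 6460 to 11300 FPKM), of which 1 was higher in the PC libraries. Genes of the cytosolic ribosome went the other way, with 67 of 85 higher in the PC libraries and 1 in the SMC libraries. These lists differ between the same libraries as every comparison below, and their part in it was not tested. In such bulk libraries, fewer cells of a type and less RNA per cell cannot be told apart.

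PC-2 stood apart from the other libraries. Its FPKM summed to 1190435, against 656405 to 782014 in the other 7. FPKM count sequenced fragments relative to transcript length and to the size of the library, so they give a level per length but not the number of reads, and the depth behind a value is unknown. Relative depths read from the steps between low values were 0.868 in PC-2 and up to 1.07 elsewhere. Among the 84 members, PC-2 was the highest PC library for 79 and the highest of all 8 libraries for 74. For the 78 members with a mean of at least 10 FPKM, the ratio of PC-2 to the mean of the other PC libraries had a median of 2.46 (0.766 to 3.15). The members' comparisons are therefore given with all 8 libraries and, for most, also without PC-2. PC-2 was set apart after the values were seen, those of the members included. Leaving it out removes the highest PC value of 79 members, so the counts without PC-2 partly follow from this choice.

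The excess in PC-2 went with short transcripts. Members are short, with a median of 943.5 bases for the longest annotated transcript against 2628.5 for other protein-coding genes. Across the 78 members the log2 excess of PC-2 had a Pearson correlation of -0.467 and a Spearman correlation of -0.448 with transcript length, a description across genes that share the libraries. Members with transcripts of up to 700 bases had a median log2 excess of 1.43 (23 genes), and those of over 2000 and up to 3000 bases had 0.59 (8 genes). Among other protein-coding genes the medians for the same lengths were 1.25 and 0.128. Sdha and Ndufs1, with transcripts of 2900 and 2918 bases, were the members of that length class that were lower in PC-2 than in the mean of the other PC libraries. The 6 members with annotated transcripts over 3000 bases had a median excess of 1.37, unlike other genes of that length (-0.444). A weaker trend in the same direction was seen in SMC-1 against the other SMC libraries. Its medians among other protein-coding genes were 0.398 (up to 700 bases) and -0.21 (over 3000 bases). For members they were 0.235 and 0.274, and 0.135 for over 2000 and up to 3000 bases. SMC-1 is kept in the comparisons without PC-2.

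**Figure D1:**
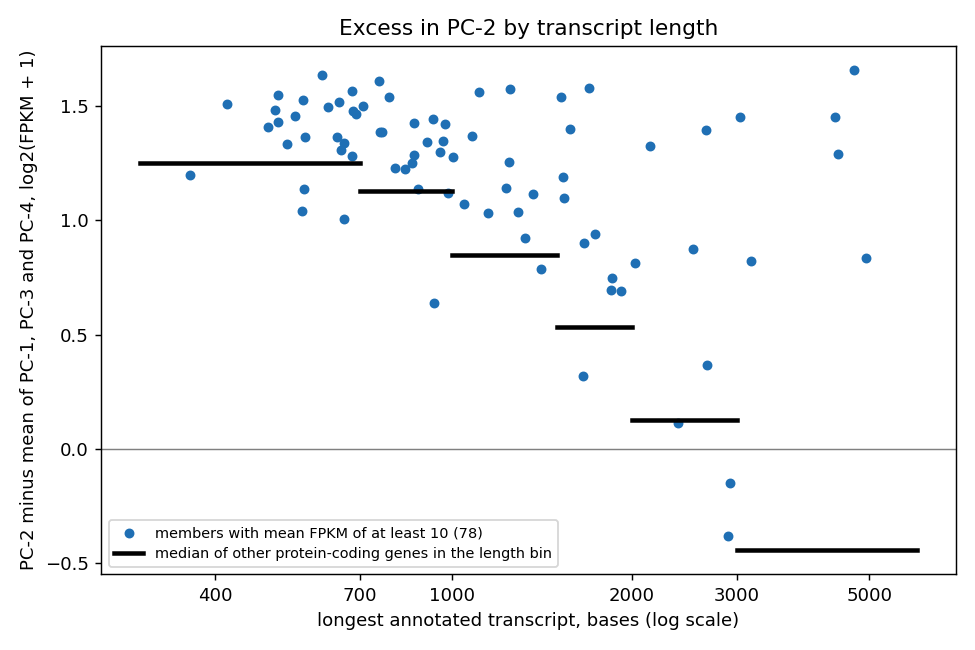
Each blue point is 1 of the 78 members with a mean of at least 10 FPKM; the horizontal axis is its longest annotated transcript in bases (log scale), and the vertical axis is PC-2 minus the mean of PC-1, PC-3 and PC-4 in log2(FPKM + 1). Black bars give the median of other protein-coding genes in each length bin. The members' median excess falls from 1.43 (up to 700 bases) to 0.59 (over 2000 and up to 3000 bases), but is 1.37 for the 6 members over 3000 bases. The bars fall from 1.25 to -0.444.

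The members were among the more abundant transcripts in both groups. Their mean level over the 8 libraries had a median of 278 FPKM and reached 1270 FPKM, and 67 of 84 were at 100 FPKM or more, as were 4.79% of all genes tested. Only 9 members were below 25 FPKM. These were Cox8c, Cox7b2, Atp5l2, Cox8b, Atp5s, Cox6b2, Cox4nb, Atp5sl and Cox7a1, which include tissue forms of complex IV subunits other than Cox6a2 (mean 41.9 FPKM). The most abundant members, Atp5b (the catalytic β subunit of ATP synthase), Cox4i1 and Cox8a, had lowest values of 902, 946 and 801 FPKM in any library.

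Together the 84 members took 3.30%, 4.76%, 2.96% and 3.27% of the summed FPKM in PC-1 to PC-4. They took 4.28%, 4.13%, 3.64% and 4.01% in SMC-1 to SMC-4. PC-2 was the highest and the other 3 PC libraries were all below the SMC libraries. The groups overlapped. The mean difference was -0.447 percentage points (PC minus SMC), beside a pooled SD of 0.604 between single libraries of a group, and was not tested. Without PC-2 it was -0.845 points and without PC-3 it was -0.243 points. With the 100 highest other genes left out of the sum it was -0.199 points.

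With all 8 libraries, 2 members were higher in the PC libraries and 4 in the SMC libraries. Cox6a2 and Atp5d were higher in the PC libraries, and Cox8b, Cox7a1, Cox6b2 and Atp5s in the SMC libraries (limma on log2(FPKM + 1), Benjamini-Hochberg adjusted p below 0.05 over 27414 genes). Over all genes tested, 10.6% were called higher in the PC libraries and 11.2% in the SMC libraries; the members' own counts lie below this background, with no test of the difference. After TPM scaling the split was 3 and 16 members, beside 7.72% and 13.6% of all genes. With the replicate number as a block, Cox6a2 was the only member still called. Past a log2 difference of 2 there were 2 members (Cox6a2 and Cox8b), against 5.89% of all genes. The median difference of the members was -0.036, against 0.020 for all genes tested.

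Without PC-2 the count became lopsided. Of the 84 members, 30 were higher in the SMC libraries and 3 (Cox6a2, Atp5d and Cox7a2l) in the PC libraries. The background without PC-2 was 11.4% of all genes higher in the SMC libraries and 11.8% higher in the PC libraries. Among genes that averaged 10 FPKM or more, a level that 78 members reach, 22.2% were called higher in the SMC libraries, and 28 of those 78 members were. The median difference of the members was -0.296 (all genes 0.007). Without PC-2 the differences still varied with transcript length, so all genes are not a length-matched background. Other protein-coding genes had medians of -0.152 (up to 700 bases) and -0.206 (over 700 and up to 1000), and members -0.416 and -0.438. For over 1000 and up to 1500 bases the medians were -0.24 and -0.193, with members the higher. For over 3000 bases they were 0.237 and, for members, -0.475. With a trend on transcript length removed from every library, 8 members were higher in the PC libraries and 12 in the SMC libraries, beside 12.5% and 12.0% of all genes, and the members' median was -0.032. Those 8 were Cox6a2, Atp5d, Cox7a2l, Cox5a, Uqcrfs1, Atp5a1, Atp5b and Atp5g2. A broad shift of the whole set between the groups thus depended on PC-2 and on the scaling.

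The order of the libraries shows the same. For 5 members every PC library was above every SMC library (Cox5a, Cox6a2, Cox7a2l, Atp5a1 and Atp5d), which 12.1% of all genes did. For 4 members every SMC library was above every PC library (Cox6b2, Cox7a1, Cox8b and Atp5s), which 12.5% of all genes did. Leaving PC-2 aside, every SMC library was above PC-1, PC-3 and PC-4 for 41 of the 84 members, against 15.9% of all genes.

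**Figure D2:**
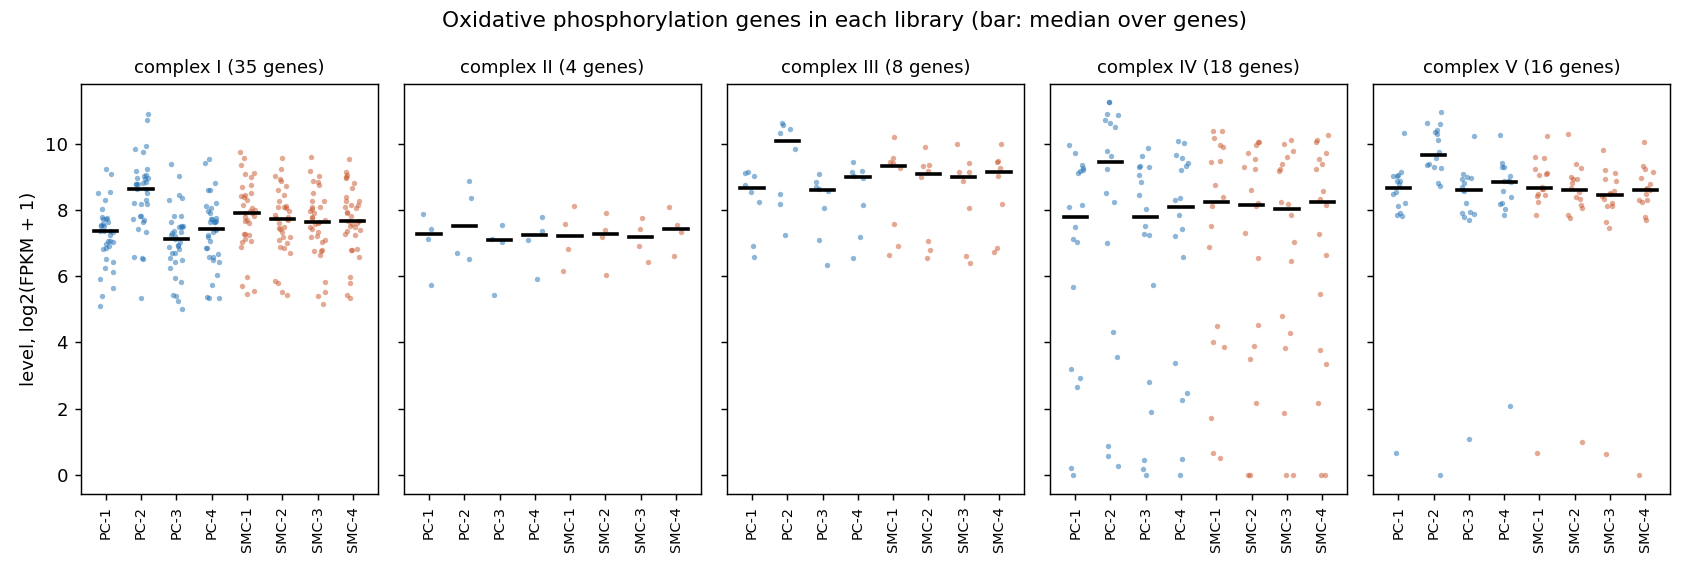
Levels of the members in log2(FPKM + 1), 1 panel for each complex and 1 column of points for each library (PC in blue, SMC in orange); points are genes and black bars are medians over genes. PC-2 is raised in every complex, least in complex II (median 7.53 against 7.09 to 7.29 in the other PC libraries), and for complex I the medians of PC-1, PC-3 and PC-4 (7.12 to 7.43) lie below those of the SMC libraries (7.64 to 7.92).

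The members are described by complex below, with no test between complexes. Complex I is the NADH dehydrogenase, the entry point for most electrons. With all libraries limma called 0 of its 35 genes (1 at an unadjusted p below 0.05), the differences of 26 were below 0, and their median was -0.21. Without PC-2 all 35 differences were below 0 and the median was -0.49. Of the 35, 20 were called, beside 11.4% of all genes higher in the SMC libraries, or 22.2% of those averaging 10 FPKM or more. Every SMC library was above PC-1, PC-3 and PC-4 for 25 of the 35, beside 15.9% of all genes. With all 8 libraries and the length trend removed, 6 were called on the SMC side and 0 on the PC side (median -0.153). TPM scaling of all 8 libraries gave 8 and 0. The shares of all genes on the SMC side were 12.0% and 13.6%.

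Ndufb9 and Ndufa5, accessory subunits of the membrane arm and the matrix arm, had the lowest adjusted p of complex I in this direction with all libraries; without PC-2 that of Ndufa8 was the lowest (0.00154). Ndufb9 had 263, 606, 200 and 275 FPKM in PC-1 to PC-4 and 553, 485, 458 and 499 FPKM in the SMC libraries. PC-2 was the highest of all, and the other PC libraries were the lowest. The log2 difference was -0.70 ± 0.32 (SE, adjusted p = 0.187, limma) with all libraries and -1.03 ± 0.13 (SE, adjusted p = 0.00321) without PC-2. Ndufa5 had 184, 448, 183 and 249 FPKM in the PC libraries and 432, 391, 362 and 407 FPKM in the SMC libraries. It followed the same order, with a difference of -0.68 ± 0.28 (SE, adjusted p = 0.149) and, without PC-2, -0.96 ± 0.13 (SE, adjusted p = 0.00411). With all 8 libraries and the length trend removed, their adjusted p were 0.00185 and 0.00488. Ndufs1, a long catalytic core gene that PC-2 does not raise, had 49.2, 39.2, 42.0 and 40.0 FPKM in the PC libraries and 43.2, 55.1, 45.1 and 62.0 FPKM in the SMC libraries. Its groups overlapped (log2 difference -0.25 ± 0.14, SE, adjusted p = 0.266; without PC-2 -0.22, adjusted p = 0.415).

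At the other end of complex I stood Ndufa3, Ndufb7 and Ndufs4, with differences of 0.29, 0.25 and 0.26 and adjusted p of 0.668, 0.657 and 0.622 (limma). Without PC-2 these differences were -0.09, -0.07 and -0.04. Ndufa1, an accessory subunit and the most abundant complex I member, went from 0.15 to -0.23 (adjusted p = 0.144).

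Complex II, succinate dehydrogenase, also works in the tricarboxylic acid cycle and is encoded wholly in the nucleus. None of its 4 genes was called by limma with all libraries (median -0.01; 0 at an unadjusted p below 0.05) or without PC-2 (median -0.21; 1 at an unadjusted p below 0.05). Sdha, the flavoprotein with the succinate site, had 140, 104, 130 and 136 FPKM in the PC libraries and 113, 144, 121 and 159 FPKM in the SMC libraries. The groups overlapped and the difference was -0.07 ± 0.14 (SE, adjusted p = 0.804, limma), and 0.03 without PC-2 (adjusted p = 0.921). Sdhb, the iron-sulfur subunit, and Sdhd, a membrane anchor, had differences of 0.05 and 0.08 (adjusted p = 0.937 and 0.867) and, without PC-2, of -0.24 and -0.18. Sdhc, the other anchor, had the largest difference in size of the 4, -0.40 ± 0.24 (SE, adjusted p = 0.337), and -0.61 without PC-2 (adjusted p = 0.0635).

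In complex III, the cytochrome bc1 complex, the large and the small subunits had medians of opposite sign, a contrast that was not tested. Uqcrc1 and Uqcrc2 (the core proteins) and Uqcrfs1 (the Rieske iron-sulfur protein) had a median difference of 0.52 and, without PC-2, of 0.27. The 5 small subunits had a median of -0.04 and, without PC-2, of -0.43, and 3 of them (Uqcr10, Uqcr11 and Uqcrb) were then called higher in the SMC libraries. Transcripts of the small subunits are also the shorter ones, except Uqcrq. Uqcr11 had 572, 1594, 418 and 564 FPKM in the PC libraries and 1174, 958, 1019 and 1015 FPKM in the SMC libraries. PC-2 was again the highest library and the other 3 the lowest (log2 difference -0.61 ± 0.39, SE, adjusted p = 0.364; without PC-2 -1.02 ± 0.14, SE, adjusted p = 0.00381; limma). Uqcrfs1 had 118, 288, 136 and 144 FPKM in the PC libraries and 121, 109, 95.9 and 116 FPKM in the SMC libraries, and its groups overlapped. Its difference was 0.54 ± 0.27 (SE, adjusted p = 0.229) with all libraries and 0.27 (adjusted p = 0.141) without PC-2, and it was called with the length trend removed (adjusted p = 0.0194), as were Uqcr11 and Uqcrb on the SMC side (0.0125 and 0.0477). The other named complex III genes, Uqcrc1, Uqcrh, Uqcr10 and Uqcrb, had differences of 0.52, 0.26, -0.04 and -0.34 (adjusted p of 0.213, 0.631, 0.958 and 0.512) with all libraries and of 0.44, -0.05, -0.43 and -0.62 (adjusted p of 0.371, 0.841, 0.0205 and 0.0188) without PC-2.

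**Figure D3:**
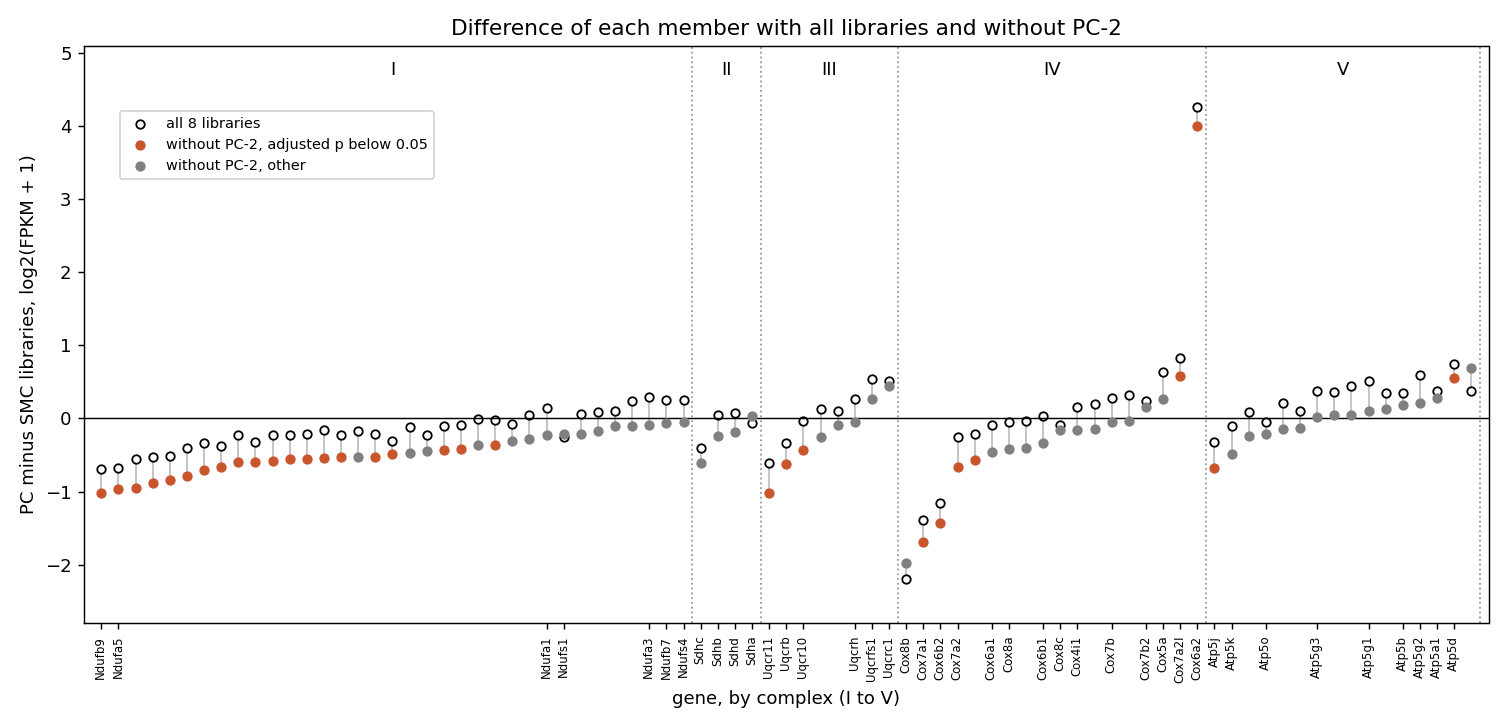
Difference of PC minus SMC libraries in log2(FPKM + 1) for the 81 genes assigned to a complex, ordered within each complex, with names for the genes chosen by the naming rule; open circles use all 8 libraries, filled circles leave out PC-2 (orange where limma's adjusted p is below 0.05, grey otherwise), and a line joins both values of a gene. Without PC-2 all 35 complex I genes lie below 0, 10 of 16 complex V genes lie above 0, and Cox6a2 stands alone at the top.

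In complex V, ATP synthase, limma called 1 of 16 genes with all libraries (Atp5d, higher in the PC libraries) and 2 without PC-2, 1 in each direction. By sign alone, 13 of 16 differences were positive with a median of 0.36, and 10 of 16 with a median of 0.05 without PC-2 (12 of 15 and 9 of 15 when Atp5l2 is left out). The 5 genes of the F1 head, where ATP is made, all had positive differences (median 0.37; 0.18 without PC-2, when Atp5c1 was at -0.14). Atp5d, the δ subunit of the central stalk, had 469, 856, 496 and 521 FPKM in the PC libraries and 348, 269, 360 and 386 FPKM in the SMC libraries, and the groups did not overlap. Its difference was 0.75 ± 0.21 (SE, adjusted p = 0.0453, limma) and 0.55 ± 0.13 (SE, adjusted p = 0.0304) without PC-2. The call was lost when any other single library was left out (adjusted p of 0.0619 to 0.114).

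Atp5a1, the α subunit, had 528, 619, 446 and 467 FPKM in the PC libraries and 418, 403, 363 and 395 FPKM in the SMC libraries. The groups did not overlap, but the difference of 0.37 ± 0.11 (SE) had an adjusted p of 0.0544 (limma), of 0.0529 without PC-2 (0.28) and of 0.0338 with the length trend removed. Atp5b had 1278, 1998, 1203 and 1237 FPKM in the PC libraries and 1203, 1249, 902 and 1062 FPKM in the SMC libraries, which overlap (0.35 ± 0.19, SE, adjusted p = 0.274; without PC-2 0.18, adjusted p = 0.404; with the length trend removed, adjusted p = 0.0466). Atp5g1, Atp5g2 and Atp5g3 encode the same mature c subunit of the membrane ring. Atp5g1 took 36.8% to 40.4% of the 3 summed levels in the PC libraries and 32.8% to 39.7% in the SMC libraries. Atp5g2 took 22.9% ± 0.947 and 21.1% ± 0.937, and Atp5g3 39.2% ± 1.82 and 41.9% ± 2.90 (SD, n = 4 each, PC first), and all 3 shares overlapped between the groups. Of the other complex V genes, only Atp5j, a peripheral stalk subunit, was called without PC-2, at -0.68 (adjusted p = 0.0123), and the differences of Atp5k and Atp5o were -0.11 and -0.05 (adjusted p = 0.879 and 0.876) with all libraries and -0.49 and -0.21 (adjusted p = 0.0604 and 0.305) without PC-2.

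Of the 6 members called with all libraries, 4 were tissue forms of complex IV, cytochrome c oxidase, and 1 of these, Cox6a2, had the lowest adjusted p (limma). Cox6a2, Cox7a1 and Cox8b are the forms typical of heart and skeletal muscle, beside the widely used Cox6a1, Cox7a2 and Cox8a, and Cox6b2 is the testis form beside Cox6b1. Of the 18 complex IV genes, Cox6a2 was higher in the PC libraries, and Cox7a1, Cox8b and Cox6b2 were higher in the SMC libraries. The muscle forms therefore did not move in the same direction. For the 4 genes the widely used counterpart overlapped between the groups and was not called with all libraries. Without PC-2 every SMC library was above the other PC libraries for all 4 counterparts, and Cox7a2 was called.

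Cox6a2 (ENSMUSG00000030785, chr7:135348950-135349880, minus strand, NCBI Build 37) had 50.6, 127, 51.9 and 94.1 FPKM in PC-1 to PC-4 and 2.27, 3.54, 2.66 and 3.54 FPKM in SMC-1 to SMC-4. The lowest PC library was far above the highest SMC library, and PC-2 was the highest but not alone. The log2 difference was 4.26 ± 0.32 (SE, adjusted p = 0.000143, limma) with all libraries and 4.01 ± 0.26 (SE, adjusted p = 0.000354) without PC-2, and the adjusted p was at most 0.00246 over the alternatives tried. A 2-sided exact permutation test gave p = 0.0286, the smallest that 4 against 4 libraries allow. Cox6a2 made up 9.57% ± 2.41 (SD, n = 4) of the summed Cox6a1 and Cox6a2 level in the PC libraries and 0.396% ± 0.114 (SD, n = 4) in the SMC libraries.

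Cox6a1, the widely used form, had 584, 1576, 462 and 644 FPKM in the PC libraries and 963, 742, 667 and 739 FPKM in the SMC libraries, and the groups overlapped (log2 difference -0.09 ± 0.37, SE, adjusted p = 0.901, limma). Without PC-2 they did not overlap, and the difference was -0.46 (adjusted p = 0.109; 0.0495 with TPM scaling). The lymphocyte markers given above were higher in the same PC libraries as Cox6a2. Skeletal muscle fiber markers overlapped as a sum. Their summed level over 16 genes was 56.1 to 80.3 FPKM in the PC libraries against 55.6 to 82.4 FPKM in the others, with none at 0 throughout a group. Of the 16, 2 were higher in the PC libraries (Mylpf, 1.01, and Atp2a1, 0.95, adjusted p = 0.0108 and 0.0211, limma) and none in the SMC libraries. The shares of all genes were 10.6% and 11.2%. The median difference of the 16 was -0.191, and at an unadjusted p below 0.05 the split was 3 and 3. TPM scaling gave 1 and 2, beside 7.72% and 13.6% of all genes.

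Cox7a1 (ENSMUSG00000074218, chr7:30969190-30971047, plus strand) had 8.14, 19.0, 5.99 and 9.42 FPKM in the PC libraries and 21.5, 22.3, 26.6 and 43.0 FPKM in the SMC libraries. The groups did not overlap although PC-2 came close. The difference was -1.39 ± 0.36 (SE, adjusted p = 0.0305, limma) and -1.69 ± 0.28 (SE, adjusted p = 0.00771) without PC-2, and the call was lost without any other single library (adjusted p of 0.0552 to 0.0944). Its share of Cox7a1 and Cox7a2 together was 3.63% ± 0.619 in the PC libraries and 8.29% ± 2.49 in the SMC libraries (SD, n = 4 each), with no overlap. Cox7a2 itself had a difference of -0.26 (adjusted p = 0.713) and, without PC-2, of -0.66 (adjusted p = 0.00832).

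Cox8b (ENSMUSG00000025488, chr7:148084842-148086345, minus strand) was low and variable in the PC libraries, at 5.26, 0.822, 0.358 and 3.76 FPKM, and had 13.6, 10.3, 18.7 and 9.20 FPKM in the SMC libraries. The groups did not overlap, and PC-2 was here among the lowest. The difference was -2.20 ± 0.52 (SE, adjusted p = 0.0221, limma). The call, but not the difference, was lost without PC-2 (-1.98 ± 0.57, SE, adjusted p = 0.0554). The same held without SMC-1, SMC-2 or SMC-3 (-2.17, -2.29 and -2.02, adjusted p of 0.0534 to 0.0655). Cox8b was 0.264% ± 0.279 of Cox8a and Cox8b in the PC libraries and 1.09% ± 0.395 in the SMC libraries (SD, n = 4 each), again with no overlap.

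Cox6b2 (ENSMUSG00000051811, chr7:4703396-4704696, minus strand) had 6.58, 10.8, 2.73 and 4.60 FPKM in the PC libraries and 15.2, 13.8, 13.1 and 12.6 FPKM in the SMC libraries. The SMC libraries were close together and above all PC libraries (-1.15 ± 0.33, SE, adjusted p = 0.0428, limma; without PC-2 -1.44 ± 0.24, SE, adjusted p = 0.00807). Without any single library other than PC-2 the adjusted p was 0.0615 to 0.110. Its share of Cox6b1 and Cox6b2 was 0.646% ± 0.244 in the PC libraries and 1.55% ± 0.0986 in the SMC libraries (SD, n = 4 each).

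**Figure D4:**
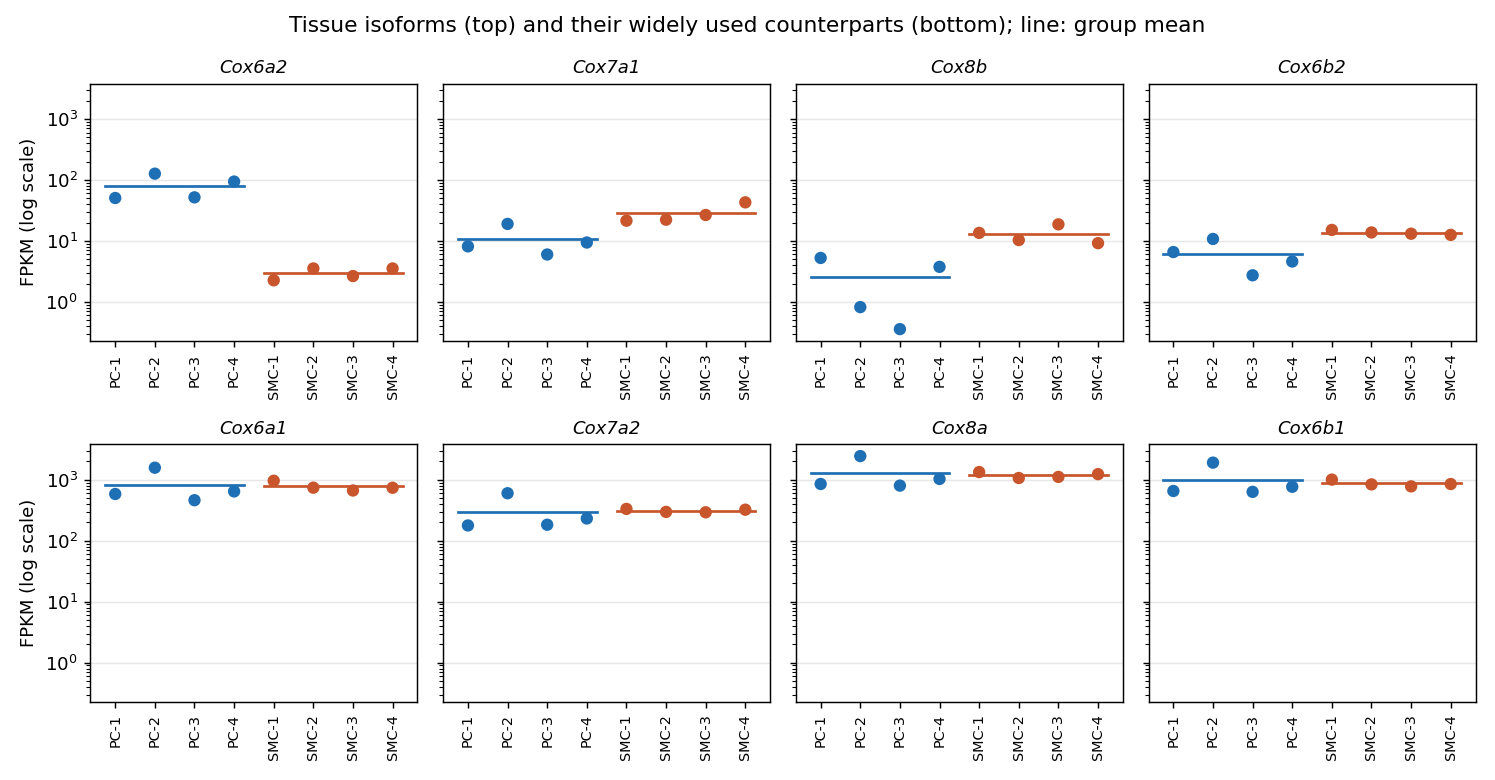
FPKM (log scale) in each library for 4 tissue forms of complex IV subunits (top row) and the widely used form of each (bottom row); points are libraries, PC in blue and SMC in orange, and lines are group means. Cox6a2 lies at 50.6 to 127 FPKM in the PC libraries and 2.27 to 3.54 in the SMC libraries, while Cox7a1, Cox8b and Cox6b2 lie higher in the SMC libraries and the bottom row overlaps where PC-2 is included.

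Cox7a2l, which helps complex IV join complex III in supercomplexes, was higher in the PC libraries once PC-2 was left out. It had 137, 301, 154 and 149 FPKM in the PC libraries and 116, 93.0, 87.1 and 98.7 FPKM in the SMC libraries. The groups did not overlap (0.83 ± 0.25, SE, adjusted p = 0.0564, limma; without PC-2 0.58 ± 0.11, SE, adjusted p = 0.0131; with the length trend removed, adjusted p = 0.000769). Cox5a, a subunit shared by all forms of the enzyme, also had every PC library above every SMC library, with 283 against 281 FPKM at the closest, and was not called (0.63 ± 0.35, SE, adjusted p = 0.281; without PC-2 0.27, adjusted p = 0.147), but was with the length trend removed (adjusted p = 0.0235). Of the other complex IV genes, Cox4i1, Cox6b1, Cox7b and Cox8a had differences of 0.16, 0.03, 0.27 and -0.05 (adjusted p of 0.786, 0.970, 0.634 and 0.948) with all libraries. Without PC-2 these were -0.16, -0.34, -0.04 and -0.41 (adjusted p of 0.406, 0.0829, 0.875 and 0.0581). Cox7b2 and Cox8c stayed below 1 FPKM in every library.

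Atp5s is named for ATP synthase and was kept apart from the subunits. It had 4.15, 7.91, 5.74 and 5.88 FPKM in the PC libraries and 16.1, 12.8, 9.96 and 10.1 FPKM in the SMC libraries, with no overlap. The difference was -0.94 ± 0.21 (SE, adjusted p = 0.0167, limma) and -1.07 ± 0.20 (SE, adjusted p = 0.0122) without PC-2, and of the single libraries only leaving out SMC-2 lost the call (adjusted p = 0.0519).

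Promoters of the complex IV pairs are described because the tissue forms separated the groups with all 8 libraries while the widely used forms overlapped, an overlap that rests on PC-2, and both members are printed for 2 of the 4 pairs. They were read from RefSeq (GRCm38.p6), 250 bases before to 50 after each gene's start, along the gene's strand, and 69 of the 84 members had an entry, of which the first listed was used where there were several. Cox6a2 was not among them. Motifs searched on both strands were GCGCATGC (core of NRF1, a regulator of nuclear respiratory genes), CCGGAAG (bound by ETS factors such as GABP) and AAGATGGC (YY1). A match is a description of letters and not of binding. Capitals mark matches, and GCGCATGC overlaps its own reverse complement where both occur. Cox6a1 (chr5:115348909-115349208, minus strand) holds the first motif on both strands and the second, and Cox8a (chr19:7217567-7217866, minus strand) holds the second at 2 places. Cox7a1 (chr7:30183921-30184220, plus strand) and Cox8b (chr7:140900397-140900696, minus strand) hold none of the 3, nor does Cox7a2 (chr9:79759804-79760103, minus strand), a widely used form. Of the remaining pair, Cox6b1 holds the second at 1 place and Cox6b2 none. Uqcr11 (chr10:80406772-80407071, minus strand), a small complex III subunit that was lower in 3 PC libraries, holds the first and the second.
Cox6a1: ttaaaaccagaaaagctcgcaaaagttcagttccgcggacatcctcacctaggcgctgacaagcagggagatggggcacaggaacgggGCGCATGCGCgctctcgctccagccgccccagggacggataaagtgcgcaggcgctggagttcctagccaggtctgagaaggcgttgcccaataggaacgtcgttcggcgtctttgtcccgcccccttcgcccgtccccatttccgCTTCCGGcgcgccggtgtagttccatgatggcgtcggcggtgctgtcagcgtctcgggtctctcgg
Cox8a: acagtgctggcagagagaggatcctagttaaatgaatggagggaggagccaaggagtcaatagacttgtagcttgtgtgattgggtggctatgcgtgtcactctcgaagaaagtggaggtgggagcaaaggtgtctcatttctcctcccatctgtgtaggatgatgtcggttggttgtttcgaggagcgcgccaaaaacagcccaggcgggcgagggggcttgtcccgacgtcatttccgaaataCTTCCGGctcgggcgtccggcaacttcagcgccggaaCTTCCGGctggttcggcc
Cox7a1: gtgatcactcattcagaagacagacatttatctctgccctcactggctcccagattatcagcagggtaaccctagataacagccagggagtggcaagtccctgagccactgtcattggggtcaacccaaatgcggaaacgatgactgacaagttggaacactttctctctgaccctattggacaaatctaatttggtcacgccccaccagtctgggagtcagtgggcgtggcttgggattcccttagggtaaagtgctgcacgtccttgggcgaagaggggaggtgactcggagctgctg
Cox7a2: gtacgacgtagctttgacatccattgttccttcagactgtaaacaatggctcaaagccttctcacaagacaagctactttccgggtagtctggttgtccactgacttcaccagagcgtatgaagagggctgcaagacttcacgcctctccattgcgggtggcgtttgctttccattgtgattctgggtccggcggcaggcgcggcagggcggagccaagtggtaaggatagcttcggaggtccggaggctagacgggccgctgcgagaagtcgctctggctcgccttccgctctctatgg
Cox8b: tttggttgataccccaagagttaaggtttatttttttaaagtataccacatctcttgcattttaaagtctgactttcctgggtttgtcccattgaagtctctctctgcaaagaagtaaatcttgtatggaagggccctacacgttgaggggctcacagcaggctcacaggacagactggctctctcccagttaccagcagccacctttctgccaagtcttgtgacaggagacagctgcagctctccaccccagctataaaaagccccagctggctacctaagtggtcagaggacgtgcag
Uqcr11: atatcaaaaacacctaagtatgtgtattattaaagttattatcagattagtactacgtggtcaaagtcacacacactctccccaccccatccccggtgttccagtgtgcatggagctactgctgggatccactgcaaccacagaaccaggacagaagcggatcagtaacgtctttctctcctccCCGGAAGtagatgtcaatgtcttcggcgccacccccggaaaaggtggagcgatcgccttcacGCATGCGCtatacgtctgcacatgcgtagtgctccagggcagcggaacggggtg

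Over the 69 members, 10 promoters (14.5%) held GCGCATGC, 15 (21.7%) CCGGAAG and 10 (14.5%) AAGATGGC. Over the first promoters of 27025 RefSeq genes, of the same length, the shares were 2.80%, 9.12% and 2.88%. At least 1 of the 3 was found in 30 members (43.5%) and in 13.8% of all promoters, counting the first promoter of each gene; a second promoter of Atp5j holds CCGGAAG and AAGATGGC as well. These counts carry no test.

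Genes around the members were counted from lists of the pathway, to be read beside the shares of all genes given above (10.6% higher in the PC libraries and 11.2% in the SMC libraries, and 11.8% and 11.4% without PC-2). Of 46 assembly factors, which build the complexes, 2 were higher in the PC libraries and 4 in the SMC libraries (median difference 0.02), and 4 and 13 without PC-2 (median -0.22). Coa7 (listed as 2010305A19Rik), an assembly factor of complex IV, had 25.4 to 32.1 FPKM in PC-1 to PC-4 against 8.43 to 9.77 FPKM in SMC-1 to SMC-4 (1.51 ± 0.09, SE, adjusted p = 5.45e-05, limma). Cox10, which makes heme A for complex IV, was the other one higher in the PC libraries (1.29, adjusted p = 0.0214). Tmem126b, Ndufaf1 and Ndufaf7 (listed as 2410091C18Rik), which act on complex I, and Surf1, which acts on complex IV, were higher in the SMC libraries, with differences of -1.13, -0.64, -0.58 and -0.78 (adjusted p = 0.000931, 0.00668, 0.0365 and 0.0364). Ndufaf4, also a complex I factor, had a difference of 1.14 and was not called (adjusted p = 0.124).

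Subunits and partners that the name rule leaves out numbered 10. Ndufa4l2, a hypoxia-induced relative of Ndufa4, had 10.9, 24.5, 12.6 and 19.9 FPKM in the PC libraries and 49.8, 38.4, 74.6 and 86.1 FPKM in the SMC libraries (-1.82 ± 0.34, SE, adjusted p = 0.00815, limma). It did not overlap between the groups. Cox4i2, the hypoxia-linked form of Cox4i1, ranged from 3.38 to 15.4 FPKM in PC-1 to PC-4 and from 18.2 to 53.6 FPKM in SMC-1 to SMC-4, without overlap and without a call (-1.64 ± 0.54, SE, adjusted p = 0.0709). Ndufab1, the acyl carrier protein in complex I, had a difference of -0.42 (adjusted p = 0.555) and -0.82 (adjusted p = 0.00717) without PC-2. Etfdh, which feeds electrons from fat oxidation to the chain, was higher in the PC libraries (0.35, adjusted p = 0.0303, limma). Of the 10 genes, 1 was thus higher in the PC libraries and 1 in the SMC libraries, and 1 and 5 without PC-2. TPM scaling gave 0 and 4, and the replicate number as a block gave 0 and 1, so the call of Etfdh was lost in both.

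The calls among regulators of mitochondrial biogenesis were on the PC side. Of 21 such genes 8 were higher in the PC libraries and 0 in the SMC libraries by limma, also at an unadjusted p below 0.05 (median 0.36), and 7 and 0 without PC-2 (median 0.50). The other 13 were not called with all libraries, and TPM scaling left 5 called. The shares of all genes were 10.6% and 11.2% with all libraries. Tfam, the packaging and transcription factor of mitochondrial DNA, had 36.4, 41.7, 56.9 and 62.3 FPKM in the PC libraries and 14.3, 21.0, 12.1 and 10.9 FPKM in the SMC libraries (1.70 ± 0.24, SE, adjusted p = 0.00259, limma). Tfb2m and Nrf1 followed with 0.90 and 1.09 (adjusted p = 0.00103 and 0.00192), and PC-2 was not the highest PC library for any of these 3. Ppargc1a, the coactivator PGC-1α, was low in both groups (0.473 to 2.78 FPKM in PC-1 to PC-4 against 1.66 to 3.56 FPKM in SMC-1 to SMC-4) and was not called (adjusted p = 0.330).

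The genes of mitochondrial DNA had no call by limma (3 at an unadjusted p below 0.05, all higher in the PC libraries). Of 15 genes of that genome, 11 had values, 9 of them protein-coding, and mt-Atp6, mt-Atp8, mt-Co3 and mt-Nd4l are listed at 0 in all 8 libraries. The difference was highest for mt-Nd6, with 302, 831, 661 and 367 FPKM in the PC libraries and 240, 239, 279 and 250 FPKM in the SMC libraries (0.98 ± 0.32, SE, adjusted p = 0.0714, limma; without PC-2 0.73, adjusted p = 0.113), and there the groups did not overlap. The summed level of the 9 genes divided by that of the 84 nuclear members was 0.682, 0.717, 1.42 and 0.962 in PC-1 to PC-4 and 0.560, 0.596, 0.668 and 0.675 in SMC-1 to SMC-4. By this ratio every PC library was above every SMC library, but PC-1 (0.682) only just above SMC-4 (0.675). PC-2 does not stand out in it. By the median log2 level of the 9 genes minus that of the nuclear members, the groups overlapped. PC-1 was then the lowest library (1.64), with 2.01, 3.19 and 2.37 in PC-2 to PC-4 and 1.67 to 1.92 in the SMC libraries.

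**Figure D5:**
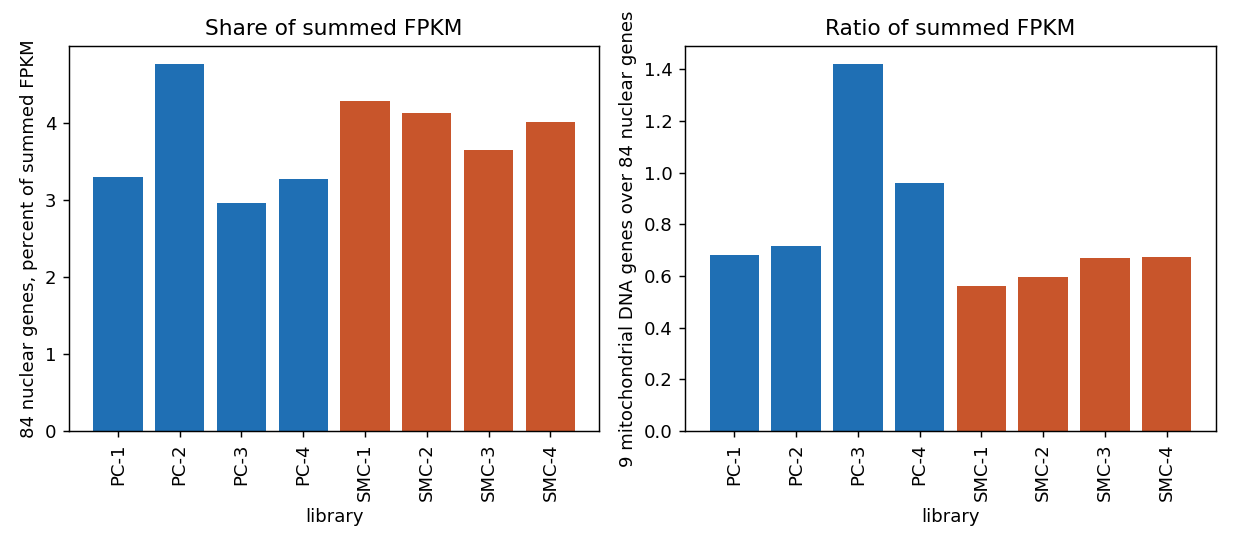
Left, the share of each library's summed FPKM taken by the 84 nuclear members; right, the summed FPKM of 9 mitochondrial DNA genes over that of the 84 members, 1 bar for each library (PC in blue, SMC in orange). The share is highest in PC-2 (4.76%) and lowest in PC-3 (2.96%), and the ratio runs from 0.560 in SMC-1 to 1.42 in PC-3.

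Neighbouring pathways were counted in the same way, beside 10.6% and 11.2% of all genes. Of 18 genes listed for the mitochondrial outer membrane and import, 1 was called higher in the PC libraries and 1 in the SMC libraries. Their median was 0.592, and at an unadjusted p below 0.05 (limma) the split was 7 and 2. Without PC-2 the calls were 4 and 3, beside 11.8% and 11.4% of all genes, with a median of 0.387. Of 18 genes of the tricarboxylic acid cycle, 0 were higher in the PC libraries (also at an unadjusted p below 0.05) and 1 in the SMC libraries (Sucla2, a succinyl-CoA ligase subunit, -0.69, adjusted p = 0.00681, limma), with a median of 0.03. Of 19 glycolysis genes, 4 were higher in the PC libraries, led by Eno1 and Pkm2 with 0.93 and 0.48 (adjusted p = 0.0036 and 0.0128), and 1 in the SMC libraries (Pfkm, the muscle phosphofructokinase, -1.47, adjusted p = 0.0216); TPM scaling turned this split to 2 and 4, beside 7.72% and 13.6% of all genes. Of 76 genes of the mitochondrial ribosome, 5 and 1 were called, and 5 and 12 without PC-2, beside the 11.8% and 11.4% of all genes given above. TPM scaling gave 4 and 7, beside 7.72% and 13.6% of all genes. With the length trend removed the split was 15 and 3, beside 12.5% and 12.0%.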

How the data were processed

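Reads had been mapped by the authors with TopHat and Bowtie2 to NCBI Build 37, and the deposited table holds 1 FPKM value per gene and library, based on Ensembl gene models. The program that computed FPKM and any use of strand are not given in the sources used here. Libraries had been made with a SMART-Seq kit and Nextera XT. Gene positions and transcript lengths came from GENCODE version 1 for mouse (Ensembl release 65), of the same build.

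Values were taken as log2(FPKM + 1), a scale that understates the change of low genes, and compared in R 4.3.3 with limma 3.58.1 over the 27414 genes above 0 in at least 1 library, with Benjamini-Hochberg adjustment. The test was checked on simulated data, and the outcome is not reported here. Figures and exact permutation tests used Python 3.11.15. Replicates are separate pools of sorted cells, so p-values measure the spread between pools. Members were named by a rule: in each complex up to 3 per direction with the lowest adjusted p, the tissue forms, complex II, the most abundant member and any past a log2 difference of 2. Others named (such as Atp5s and the members of a count) were chosen after their values were seen. The members and lists were chosen with earlier results of these data known. Alternatives that leave out both replicate 2 libraries, combine TPM with leaving out PC-2, or remove a trend on transcript length were chosen after seeing the data. So was the choice to set PC-2 apart.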

Additional observations from a re-analysis of the deposited data

Results flagged for a closer look

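Within a group of 4 libraries, a member was singled out where 1 library lay far from the other 3 relative to the range of the group. This was found in 10 of 94 groups tested, and chance gives it in about 1 in 20 independent groups. The 94 groups share the same 8 libraries, so the 10 cannot be set against that rate. Where the other 3 values are 0, any value above 0 meets the rule. In the PC libraries 7 genes were singled out, each by the value of PC-2, in log2(FPKM + 1): Atp5b at 10.97, Atp5g1 at 10.42, Atp5g2 at 9.59, Cox4i1 at 11.26, Cox7a2l at 8.24, Ndufs4 at 6.52 and Cox8c at 0.28, the last being the only PC library above 0. In the SMC libraries SMC-3 was low for Cox5a (7.84), and SMC-1 was the only library above 0 for Cox7b2 (0.52) and Cox8c (0.65). The same PC-2 excess is described above for nearly all members.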

How the results depend on the processing

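Depth is unknown for FPKM, so genes under about 1 FPKM (Cox8c, Cox7b2 and Atp5l2) carry no weight. With all libraries 2 members were higher in the PC libraries, 4 in the SMC libraries and 2 past a log2 difference of 2. A pseudocount of 0.1 gave 1 higher in the PC libraries, no filter gave 1, 1 and 1, and an intensity trend gave 1 in the PC libraries. Quantile scaling gave 5 and 11, and TPM gave 16 in the SMC libraries and a complex II median of -0.251. Leaving out 1 library at a time gave 1 to 3 higher in the PC libraries, 0 to 30 in the SMC libraries (30 without PC-2; 0 without SMC-2 by limma, 4 at an unadjusted p below 0.05), 1 to 2 past a log2 difference of 2, and complex II medians of -0.209 (without PC-2) to 0.062. Leaving out both replicate 2 libraries gave 20 in the SMC libraries, 1 past a log2 difference of 2 and a complex II median of -0.236. TPM without PC-2 gave 41, 1, -0.273 and a complex V median of -0.014, and there Cox6b1 (-0.405) and Ndufa1 (-0.294), of the genes chosen by the naming rule, turned to the SMC side, as did Ndufb11 and Atp5j2 of the other members. Removing the length trend gave 8 and 12. The cause of these changes was not tested. A change of sign was counted only where 1 of both values was called.

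The replicate numbers were not taken to pair the samples, since no label ties them to a shared animal or day and not every pair was over 0.1: same-numbered libraries deviated from their group means with correlations of 0.0794, 0.319, 0.437 and 0.474, and 2 of 4 PC libraries correlated best with their own number. With the replicate number as a block, 1 member (Cox6a2) was higher in the PC libraries, 0 in the SMC libraries by limma (4 at an unadjusted p below 0.05) and 1 past a log2 difference of 2. Atp5d, Atp5s, Cox6b2, Cox7a1 and Cox8b then had adjusted p of 0.131, 0.0556, 0.0545, 0.065 and 0.0585.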
